A study of Homo sapiens with 6 samples.

Results

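The genes described here are 10 genes of the Wnt/beta-catenin pathway, followed across 6 libraries of HCT116. This human colorectal cancer line carries a stabilising mutation in its CTNNB1 gene. They are the feedback and target genes AXIN2, DACT1, RNF43, ZNRF3, TCF7, LEF1, LGR5, NKD1 and SP5, and CTNNB1, which encodes beta-catenin itself. For short, all 10 are called feedback and target genes below. Each was taken as the row whose NCBI gene ID carries that symbol, and all 10 were found among 28395 gene IDs. The set was selected on its measured TR-107 against DMSO fold changes, AXIN2 and DACT1 being among the lowest of the series, as well as on its place in the pathway. Cells had received 50 nM TR-107, a small-molecule agonist of the mitochondrial protease subunit ClpP, for 24 h (3 libraries), or 0.1% DMSO, the vehicle, for 24 h (3 libraries). All libraries came from this single line, which carries the CTNNB1 mutation in both groups, and polyadenylated RNA was sequenced. The replicates are described as biological, but no source says how the cultures differed, and p-values therefore rest on the variation among these 6 libraries.

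In the Wnt pathway, secreted ligands bind Frizzled and LRP receptors and so disable a cytoplasmic destruction complex that otherwise marks beta-catenin for degradation. Beta-catenin then enters the nucleus and binds TCF/LEF factors on DNA. Many of the genes switched on in this way, such as AXIN2, RNF43 and NKD1, encode inhibitors of the same pathway, so their mRNAs are commonly read as a measure of its output. In colorectal cancer, mutations of APC or of CTNNB1 itself keep beta-catenin stable without a ligand.

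Libraries held 17264039 to 22243758 gene counts for TR-107 and 18344471 to 23708135 for DMSO. Of 7 epithelial markers, 6 had at least 1 CPM (counts scaled to a common library size by TMM, 1 CPM being 1 in each 1000000) in all 6 libraries, the exception being VIL1, with summed levels of 5840 to 5954 CPM in TR-107 and 5264 to 5309 CPM in DMSO. Of 5 fibroblast markers, COL1A1 alone had at least 1 CPM in all 6 libraries, and COL3A1, DCN and LUM were at 0 in every library. The fibroblast list summed to 16.2 to 18.2 CPM in TR-107 and 12.9 to 16.3 CPM in DMSO. The 3 endothelial markers summed to at most 0.438 CPM in TR-107 and 0.589 CPM in DMSO, with CDH5 at 0.

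TCF/LEF factors recognise, among related sequences, CTTTGAT or its reverse complement ATCAAAG. Only this full sequence and its core were searched, so sites with other letters after the core count as cores alone. Promoter windows of 300 bases (250 before to 50 after a transcript start, RefSeq, GRCh38.p14) were at hand for 6 of the 10 genes, and not for AXIN2, ZNRF3, LGR5 or NKD1. The windows of SP5, DACT1 and CTNNB1 are shown because SP5 had the most copies of the motif's core, DACT1 had the lowest fold change, and CTNNB1 encodes the partner of these factors and had no copy. Capitals mark the 5-letter core, CTTTG or its reverse complement CAAAG on the other strand.
SP5 (chr2:170715087-170715386, plus strand): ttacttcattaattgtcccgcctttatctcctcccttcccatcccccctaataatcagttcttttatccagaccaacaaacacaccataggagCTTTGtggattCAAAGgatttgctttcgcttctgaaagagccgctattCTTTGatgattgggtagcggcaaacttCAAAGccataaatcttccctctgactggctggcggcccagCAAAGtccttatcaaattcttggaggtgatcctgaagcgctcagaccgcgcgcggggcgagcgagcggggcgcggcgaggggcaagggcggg
DACT1 (chr14:58633811-58634110, plus strand): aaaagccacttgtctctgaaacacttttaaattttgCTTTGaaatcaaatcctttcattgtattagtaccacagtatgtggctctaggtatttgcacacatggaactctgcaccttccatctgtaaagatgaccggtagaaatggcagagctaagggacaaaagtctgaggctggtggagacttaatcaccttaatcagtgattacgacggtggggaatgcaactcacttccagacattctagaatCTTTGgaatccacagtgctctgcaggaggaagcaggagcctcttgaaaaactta
CTNNB1 (chr3:41199255-41199554, plus strand): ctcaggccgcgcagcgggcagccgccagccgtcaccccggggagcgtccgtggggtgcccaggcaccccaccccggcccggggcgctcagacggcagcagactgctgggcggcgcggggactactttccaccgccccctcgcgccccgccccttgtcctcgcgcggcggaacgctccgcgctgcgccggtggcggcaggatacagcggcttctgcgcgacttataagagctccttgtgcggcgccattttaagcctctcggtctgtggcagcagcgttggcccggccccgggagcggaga
Among these 6 genes SP5 alone had the full CTTTGAT, which begins 109 bases before its start site and which 2.62% of 35116 promoter windows of the same length hold on either strand. The SP5 window held 5 copies of the core, and 0.185% of all windows held at least 5. DACT1 had 2 copies in the window shown, as 16.0% of all windows had at least, and 1 and 0 copies in its other windows, at other transcript starts. The core was found in 7 of the 10 windows of the 6 genes, against 47.5% of all windows. A match of letters is a description of these windows and is no evidence of binding.

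DACT1, AXIN2 and SP5 were 5.73-fold, 4.88-fold and 3.52-fold lower after TR-107, while CTNNB1, which encodes beta-catenin itself, was 1.23-fold lower. TCF7, RNF43 and NKD1 lay between, at 1.80-fold, 1.51-fold and 1.47-fold lower, and ZNRF3 was 1.12-fold lower. LEF1 and LGR5 were at or next to 0 in both groups. Since these values had a part in the choice of the genes, they are given as a description, with no p-value.

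AXIN2, a scaffold of the destruction complex and the classical negative feedback gene of the pathway, lies on chromosome 17 (65528563 to 65561648; gene ID 8313). It had 84, 57 and 110 reads in the 3 TR-107 libraries, or 4.91, 3.12 and 5.13 CPM, against 439, 476 and 491 reads in the DMSO libraries, or 23.5, 20.8 and 20.3 CPM. All TR-107 libraries lay below all DMSO libraries, and replicate 2 was the lowest of the treated ones. The log2 fold change was -2.29 ± 0.16 (SE), a level 4.88-fold lower, with rank 53 from the lowest among 13767 genes tested. No annotated gene overlaps AXIN2.

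DACT1, a scaffold that binds dishevelled, the protein that relays the signal from the receptor, lies on chromosome 14 (58634061 to 58648321; gene ID 51339). It had 31, 33 and 27 reads in TR-107, or 1.81, 1.81 and 1.26 CPM, and 200, 193 and 211 reads in DMSO, or 10.7, 8.43 and 8.73 CPM. Its log2 fold change of -2.52 ± 0.23 (SE) was the lowest of the 10 genes and had rank 37 from the lowest of all genes tested. The lowest DMSO library was 6.62 CPM above the highest TR-107 library, but the treated level rests on at most 33 reads per library. In bulk RNA such as this, fewer cells with a transcript and less of it per cell cannot be told apart.

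NKD1, another inhibitor that binds dishevelled, lies on chromosome 16 (50548396 to 50649249; gene ID 85407). It had 8.94, 7.84 and 7.78 CPM in TR-107 and 13.2, 12.3 and 10.6 CPM in DMSO. The groups did not overlap, with the lowest DMSO library 1.65 CPM above the highest TR-107 library. Its log2 fold change was -0.56 ± 0.15 (SE), much nearer to 0 than that of DACT1.

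RNF43 and ZNRF3 are related transmembrane ubiquitin ligases that remove Frizzled receptors from the cell surface. RNF43 (chromosome 17, 58352500 to 58417534; gene ID 54894) had 1161, 1248 and 1479 reads in TR-107, or 68.4 ± 0.545 CPM, and 1884, 2441 and 2477 reads in DMSO, or 103 ± 3.04 CPM (SD, n = 3 each). Its treated libraries were within 1.09 CPM of each other and at least 31.9 CPM below DMSO, and its log2 fold change was -0.60 ± 0.06 (SE). RNF43 shares 1220 exon bases (GENCODE release 29) with TSPOAP1-AS1, which had 13 to 48 reads in TR-107 and 67 to 75 in DMSO, far fewer than RNF43. Whether reads from the shared bases were counted, and for which gene, was not tested.

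ZNRF3 (chromosome 22, 28883572 to 29057488; gene ID 84133) had 31.8, 30.2 and 32.2 CPM in TR-107 and 32.4, 38.9 and 34.4 CPM in DMSO. The groups touched without overlapping, since DMSO replicate 1 was 0.176 CPM above the highest treated library. Its log2 fold change of -0.17 ± 0.09 (SE) was the nearest to 0 of the 8 genes tested, and 36.4% of all tested genes had a lower one. The SD of 3.31 CPM between DMSO libraries was close to the difference between the group means, 31.4 CPM in TR-107 and 35.3 CPM in DMSO. LGR5, the R-spondin receptor that marks intestinal stem cells and helps to clear both ligases, had no read in the TR-107 libraries and 2 reads in DMSO replicate 1.

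TCF7 encodes TCF1, a TCF/LEF factor whose short isoforms lack the beta-catenin binding domain and act as repressors, and gene counts do not separate the isoforms. On chromosome 5 (134108218 to 134148210; gene ID 6932), it had 26.6, 30.4 and 37.4 CPM in TR-107 and 56.8, 56.5 and 57.1 CPM in DMSO. The DMSO libraries were within 0.684 CPM of each other, whereas the treated ones were spread over 10.8 CPM, all below DMSO. The log2 fold change was -0.85 ± 0.09 (SE). The annotated span of TCF7 overlaps VDAC1, an abundant neighbour, but the exons of both genes share 0 bases in GENCODE release 29.

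LEF1, another TCF/LEF factor and often a target of the pathway, had 0 reads in all 6 libraries. A count of 0 allows up to 0.0515 CPM over the TR-107 libraries and 0.0466 CPM over the DMSO libraries (3 counts of the group's total, counting error only). No fold change is given for LEF1 or LGR5.

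SP5, a zinc-finger transcription factor and direct target of beta-catenin, lies on chromosome 2 (170715337 to 170718078; gene ID 389058). It had 8, 20 and 16 reads in TR-107, or 0.467, 1.10 and 0.746 CPM, and 49, 64 and 67 reads in DMSO, or 2.62, 2.80 and 2.77 CPM. Its treated libraries varied most among themselves, with an SD of 40.9% of their mean, 1 of them was below the filter on low counts, and the log2 fold change of -1.81 ± 0.41 (SE) had the widest error of the tested members. The window shown above that holds CTTTGAT is the promoter of this gene.

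CTNNB1 (chromosome 3, 41199505 to 41240443; gene ID 1499) had 314, 322 and 339 CPM in TR-107 and 395, 387 and 419 CPM in DMSO. Every treated library lay below every DMSO library, by at least 48.2 CPM. The log2 fold change was -0.30 ± 0.04 (SE), and 27.0% of tested genes had a lower one. mRNA counts carry no information on the amount or place of the beta-catenin protein.

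**Figure D1:**
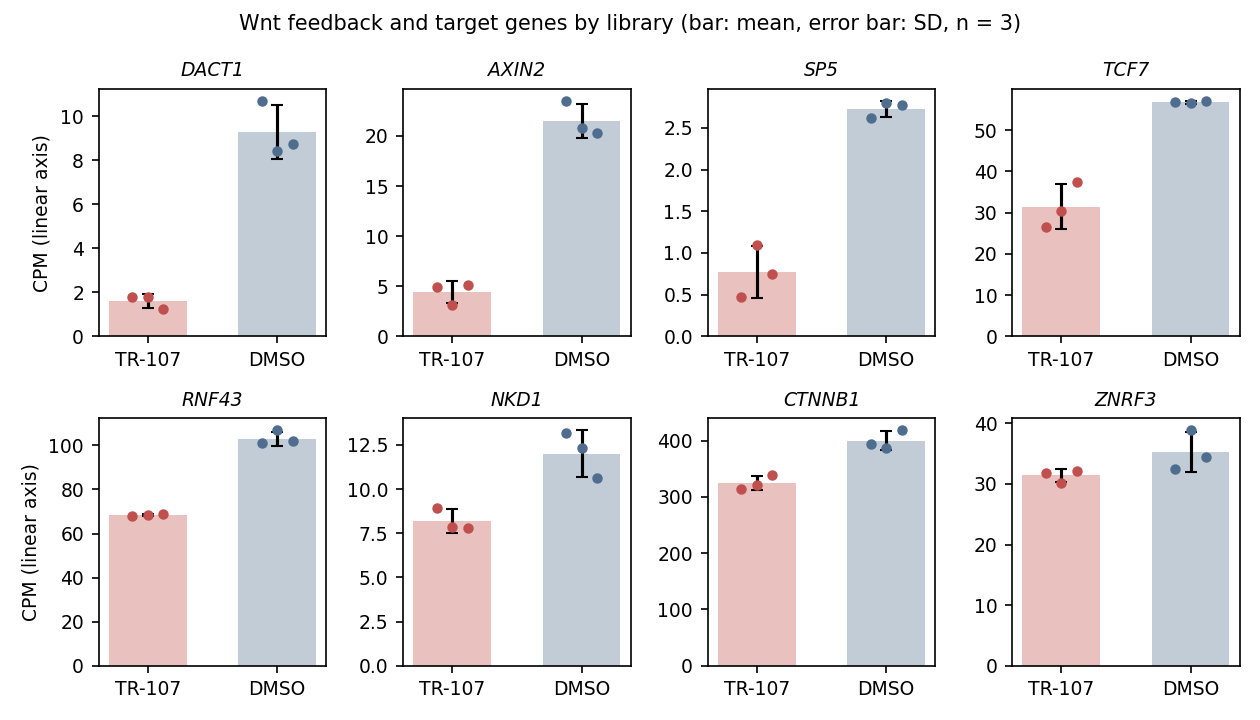
Level of the 8 tested genes in CPM (y axis, linear, from 0, a scale of its own for each gene) in TR-107 (left) and DMSO (right). Points are libraries, bars means and error bars SD (n = 3 each). In each panel the 3 treated points lie below the 3 DMSO points, by a wide gap for DACT1, AXIN2 and SP5 and by 0.176 CPM for ZNRF3.

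**Figure D2:**
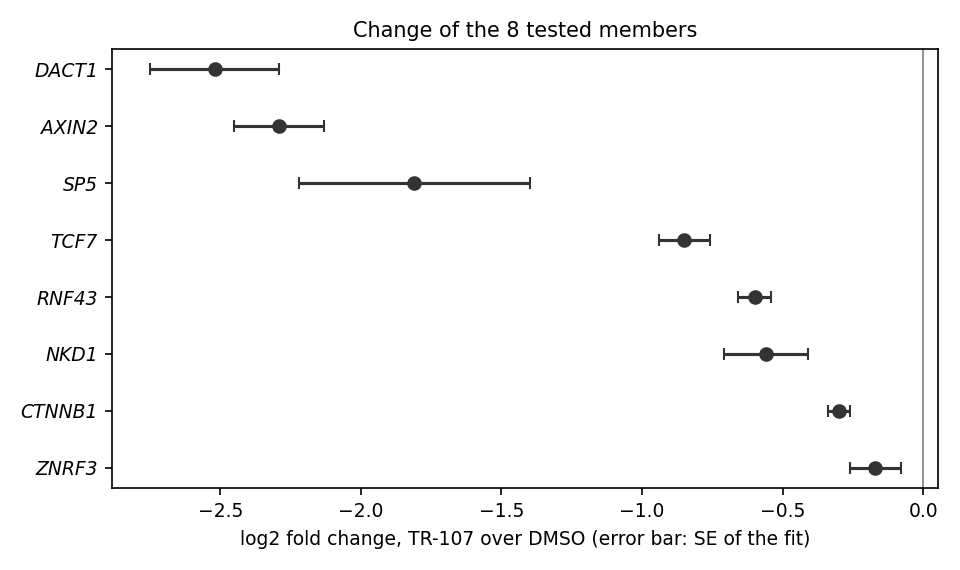
Log2 fold change of the 8 tested genes, TR-107 over DMSO (x axis), with the SE, derived from the F statistic of the fit, as error bars. DACT1 is lowest at -2.52 and ZNRF3 highest at -0.17, and the error bar of SP5 is the widest, 0.41.

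Of the 10 genes, 8 passed the filter on low counts and 7 of those, all but ZNRF3, were called lower by edgeR's quasi-likelihood test at a Benjamini-Hochberg adjusted p under 0.05, where 28.6% of all 13767 genes tested were called lower. In all 8 the treated libraries lay below all DMSO libraries, as they did in 30.9% of all tested genes. The median log2 fold change of the 8 was -0.72, beside 0.01 over all tested genes. Since this contrast was used to choose the genes, these calls are no independent test of them, and nothing is read from the counts.

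A ratio between 2 genes of the same library does not depend on how libraries are scaled. For every 100 CTNNB1 reads there were 1.56, 0.971 and 1.51 AXIN2 reads in TR-107 and 5.95, 5.38 and 4.85 in DMSO. DACT1 showed 0.577, 0.562 and 0.372 reads per 100 CTNNB1 reads in TR-107 and 2.71, 2.18 and 2.08 in DMSO. RNF43 was much closer, at 21.6, 21.3 and 20.4 in TR-107 and 25.5, 27.6 and 24.5 in DMSO. For NKD1 (2.85, 2.44 and 2.30 in TR-107; 3.35, 3.19 and 2.53 in DMSO) and ZNRF3 (10.1, 9.39 and 9.52 in TR-107; 8.21, 10.1 and 8.23 in DMSO) the groups overlapped. SP5 had 0.149, 0.341 and 0.22 in TR-107 and 0.664, 0.723 and 0.662 in DMSO. TCF7 had at least 13.6 in DMSO and less than that in every TR-107 library. Relative to CTNNB1, AXIN2, DACT1, SP5, TCF7 and RNF43 were lower in every treated library than in every DMSO library. How many of all tested genes are separated on this ratio was not computed. Since the genes were chosen on the same contrast, these ratios are a description only.

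Levels of different genes were compared per kilobase of exon (GENCODE release 29). CTNNB1 was highest, at 41.3 ± 1.60 CPM per kb in TR-107 and 50.9 ± 2.11 CPM per kb in DMSO (SD, n = 3 each). RNF43 followed at 9.28 ± 0.0740 in TR-107 and 14 ± 0.412 in DMSO, then TCF7 at 7.64 ± 1.33 and 13.8 ± 0.0830, with no overlap between these neighbours in TR-107 but overlap in DMSO. ZNRF3 and AXIN2 came next. In TR-107 they stood apart, at 4.51 ± 0.156 CPM per kb for ZNRF3 and 0.947 ± 0.237 for AXIN2, whereas in DMSO their libraries overlapped, at 5.06 ± 0.475 and 4.65 ± 0.370. At the low end the order in TR-107 was NKD1 (0.479), SP5 (0.379) and DACT1 (0.370 CPM per kb), with libraries of neighbours overlapping. In DMSO it was DACT1 (2.12), SP5 (1.34) and NKD1 (0.704 CPM per kb), with no overlap. The annotated exons of NKD1 sum to 17105 bases, which lowers its level per kb if shorter isoforms are the ones expressed.

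**Figure D3:**
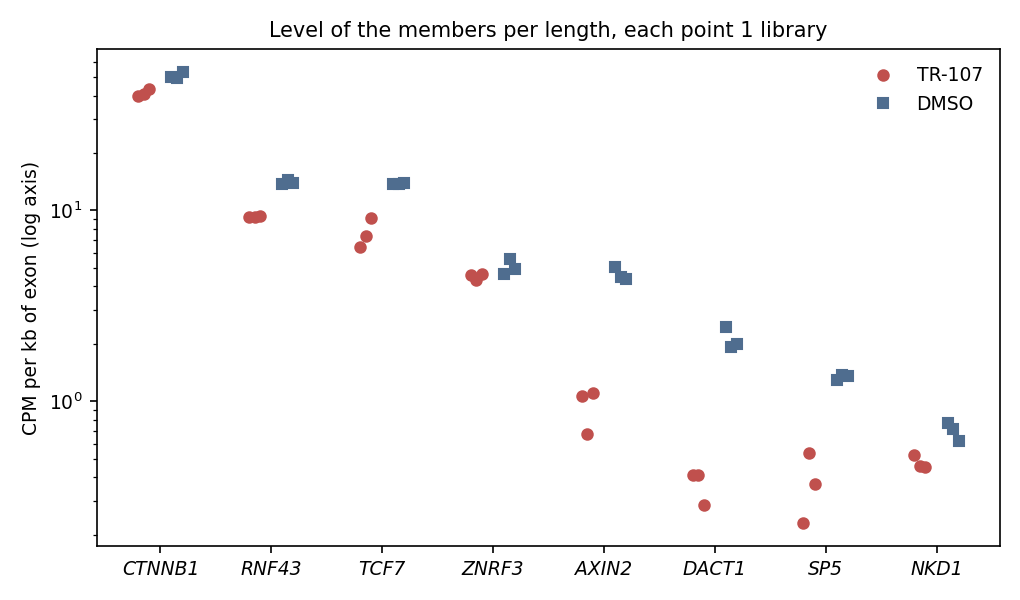
CPM per kb of exon (y axis, log scale) of 8 genes, with TR-107 libraries as circles (left) and DMSO libraries as squares (right), in the order of their DMSO means. LEF1 and LGR5, at or near 0, are not drawn. AXIN2 lies beside ZNRF3 in DMSO and well below it in TR-107.

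The genes whose profile over the 6 libraries was closest to that of AXIN2 were sought among 10546 other genes that averaged 5 CPM or more, by the root mean square distance of log2 CPM after centring each gene. The 5 nearest were RGMA (distance 0.114), which encodes a cell-surface guidance molecule, INSIG1 (0.221), a sterol-regulated membrane protein, VSNL1 (0.230), a calcium sensor, BMP4 (0.236), a secreted morphogen, and RTN4RL1 (0.251), a relative of the Nogo receptor. RGMA had 2.34, 1.21 and 2.10 CPM in TR-107 and 9.31, 7.87 and 8.89 CPM in DMSO, and like AXIN2 was lowest in TR-107 replicate 2. With 2 groups of 3 libraries, the size of the difference between groups carries most of this likeness.

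Beyond these 10 genes, 174 genes of the pathway were listed by role. Of 128 tested, 41 rose and 44 fell after TR-107 (edgeR adjusted p under 0.05), which is 66.4%, beside 57.8% of all genes tested (29.2% higher and 28.6% lower). Their median log2 fold change was -0.01, beside 0.01 over all tested genes. The shares over all genes are the background for the counts of each list below. By list, the share called ran from 46.2% for Wnt ligands and their secretion to 83.3% for nuclear partners.

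Among Wnt ligands and the factors that secrete them, 3 of 13 tested genes fell, 3 rose and 7 did not pass. WNT16 fell to 42.9 ± 2.15 CPM in TR-107, against 114 ± 8.66 CPM in DMSO (SD, n = 3 each; edgeR adjusted p = 2.08e-22). WNT10B fell to 7.19 ± 1.14 CPM, against 20.7 ± 3.41 CPM in DMSO (edgeR adjusted p = 3.53e-12). WNT3A, a potent activator of beta-catenin signalling, was 2.59-fold lower at a low level (1.95 ± 0.888 CPM in TR-107, 5.03 ± 0.456 CPM in DMSO). WNT9A rose 1.49-fold and PORCN, the acyltransferase that lipidates Wnt proteins before secretion, rose 1.61-fold. The median log2 fold change of the list was 0.25, which is the value of WNT2B. WNT2B was low, at 1.53 ± 1.03 CPM in TR-107 and 1.3 ± 0.182 CPM in DMSO, and did not pass (edgeR adjusted p = 0.675).

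Of 15 tested receptors, co-receptors and R-spondins, 7 fell and 2 rose, with a median log2 fold change of -0.34. LGR4, the R-spondin receptor that is related to LGR5, fell to 2.50 ± 0.168 CPM in TR-107, against 7.17 ± 1.84 CPM in DMSO (SD, n = 3 each; edgeR adjusted p = 4.41e-07). FZD1 was 1.60-fold and ROR2, a receptor for WNT5A, 1.55-fold lower. FZD6 rose to 94.7 ± 2.18 CPM in TR-107, against 63.9 ± 4.07 CPM in DMSO (edgeR adjusted p = 7.86e-11), and FZD7 rose 1.32-fold. LRP6, the main co-receptor, had 51.0 ± 4.41 CPM in TR-107 and 55.5 ± 2.03 CPM in DMSO and did not pass (edgeR adjusted p = 0.134).

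Of 7 tested secreted and membrane inhibitors, 4 fell and 0 rose, with a median of -0.67 on the log2 scale. Those called were 57.1%, close to the 57.8% of all tested genes (28.6% lower and 29.2% higher). DKK1, which blocks LRP co-receptors, fell to 64.6, 65.6 and 67.4 CPM in TR-107, against 184, 184 and 165 CPM in DMSO (edgeR adjusted p = 2.25e-25). NOTUM, an enzyme that strips the lipid from Wnt proteins and is itself a target of the pathway, was 2.13-fold lower, at 4.50, 4.0 and 4.38 CPM in TR-107 and 9.52, 9.26 and 8.68 CPM in DMSO (edgeR adjusted p = 2.67e-06). KREMEN1, a receptor for Dickkopf proteins, was 1.59-fold lower. Those risen numbered 0 also at an unadjusted p under 0.05, with DESeq2 and with limma-voom. A further 13 inhibitors of the list were too low to test, 6 of them with 0 reads in all libraries.

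Of 9 tested genes of dishevelled and its regulators, 4 fell and 2 rose. Among the dishevelled genes, DVL1 and DVL3 rose 1.31-fold and 1.21-fold, whereas DVL2 was 1.13-fold lower (edgeR adjusted p = 0.0160). DACT3, a relative of DACT1, fell to 0.962 ± 0.264 CPM in TR-107, against 3.17 ± 0.310 CPM in DMSO (SD, n = 3 each; edgeR adjusted p = 0.000134). CXXC5, a dishevelled-binding inhibitor, was 1.31-fold lower, and VANGL1, a planar polarity protein, 1.38-fold lower.

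All 22 genes of the destruction complex and its regulators were tested, and 10 rose, 5 fell and 7 did not pass, with a median of 0.14 on the log2 scale. CSNK1A1, the kinase that primes beta-catenin for degradation, rose to 389, 387 and 383 CPM in TR-107, against 238, 243 and 269 CPM in DMSO (edgeR adjusted p = 2.51e-16). TNKS, a tankyrase that marks axin for removal, rose 1.67-fold, CSNK1G3 1.37-fold and GSK3B, which phosphorylates beta-catenin, 1.23-fold. USP7, a deubiquitinase, PPP2R1A, a scaffold of protein phosphatase PP2A, and CSNK1G2 were 1.27-fold, 1.26-fold and 1.23-fold lower. APC had 46.2 ± 1.19 CPM in TR-107 and 52.8 ± 1.58 CPM in DMSO (edgeR adjusted p = 0.0182), a call that was lost without TR-107 replicate 1 (0.0581) or DMSO replicate 3 (edgeR adjusted p = 0.0560), within 0.00175 to 0.0581 over all settings. AXIN1, the constitutive relative of AXIN2, had 43.5, 40.5 and 43.6 CPM in TR-107 and 34.3, 43.4 and 36.8 CPM in DMSO. These groups overlapped and AXIN1 did not pass (edgeR adjusted p = 0.114), although it did without DMSO replicate 2 (edgeR adjusted p = 0.0201, log2 fold change 0.25), within 0.0201 to 0.528 over all settings.

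Of 24 tested nuclear partners of beta-catenin, 12 rose and 8 fell. Both other tested TCF genes fell: TCF7L2, the main TCF factor of the intestine, to 94.0, 88.5 and 93.8 CPM in TR-107, against 160, 159 and 163 CPM in DMSO (edgeR adjusted p = 6.72e-18), and TCF7L1 to 9.42 ± 1.48 CPM, against 15.2 ± 1.23 CPM in DMSO (SD, n = 3 each; edgeR adjusted p = 5.40e-05). With LEF1 at 0, no TCF/LEF gene was higher in TR-107. BCL9L, a co-activator that links beta-catenin to Pygopus proteins, was 1.68-fold higher, whereas its paralogue BCL9 was 1.33-fold lower (edgeR adjusted p = 1.99e-05). MED12, a Mediator subunit, was 1.60-fold higher. KLF4, a zinc-finger factor that can bind beta-catenin, rose 2.80-fold. RUVBL1 and RUVBL2, related ATPases of chromatin complexes, were 1.47-fold and 1.28-fold lower. The annotated span of RUVBL1 overlaps the abundant SEC61A1, and whether their exons share bases was not tested.

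Of 31 tested other genes reported as targets of the pathway, 13 fell, 7 rose and 11 did not pass. The list median was -0.28 on the log2 scale. BMP4 fell to 23.0, 22.3 and 21.5 CPM in TR-107, against 110, 108 and 108 CPM in DMSO (edgeR adjusted p = 4.40e-29). SOX4, a transcription factor of the SOX family, was 2.85-fold lower (53.6 ± 7.70 CPM in TR-107, 153 ± 2.96 CPM in DMSO, SD, n = 3 each), and BIRC5, an inhibitor of apoptosis that is also a mitosis gene, 2.01-fold lower. The much-used targets CCND1 and MYC were lower by smaller factors, 1.32-fold (edgeR adjusted p = 9.89e-13) and 1.15-fold (edgeR adjusted p = 4.37e-05). JUN, FOSL1 and PLAUR rose 3.29-fold, 1.79-fold and 3.05-fold. ASCL2, a stem cell factor, had 1 read in the 6 libraries.

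Of 7 tested adhesion partners, which hold beta-catenin at cell junctions, 5 rose and 0 fell, where 29.2% of all tested genes rose and 28.6% fell, with a list median of 0.36 on the log2 scale. CDH1, which encodes E-cadherin, rose to 148, 149 and 162 CPM in TR-107, against 89.0, 85.5 and 90.4 CPM in DMSO (edgeR adjusted p = 3.87e-17). CTNNA1, alpha-catenin, was 1.57-fold higher, and JUP, plakoglobin, the closest relative of beta-catenin, 1.38-fold higher. Those fallen numbered 0 also at an unadjusted p under 0.05, with DESeq2 and with limma-voom.

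**Figure D4:**
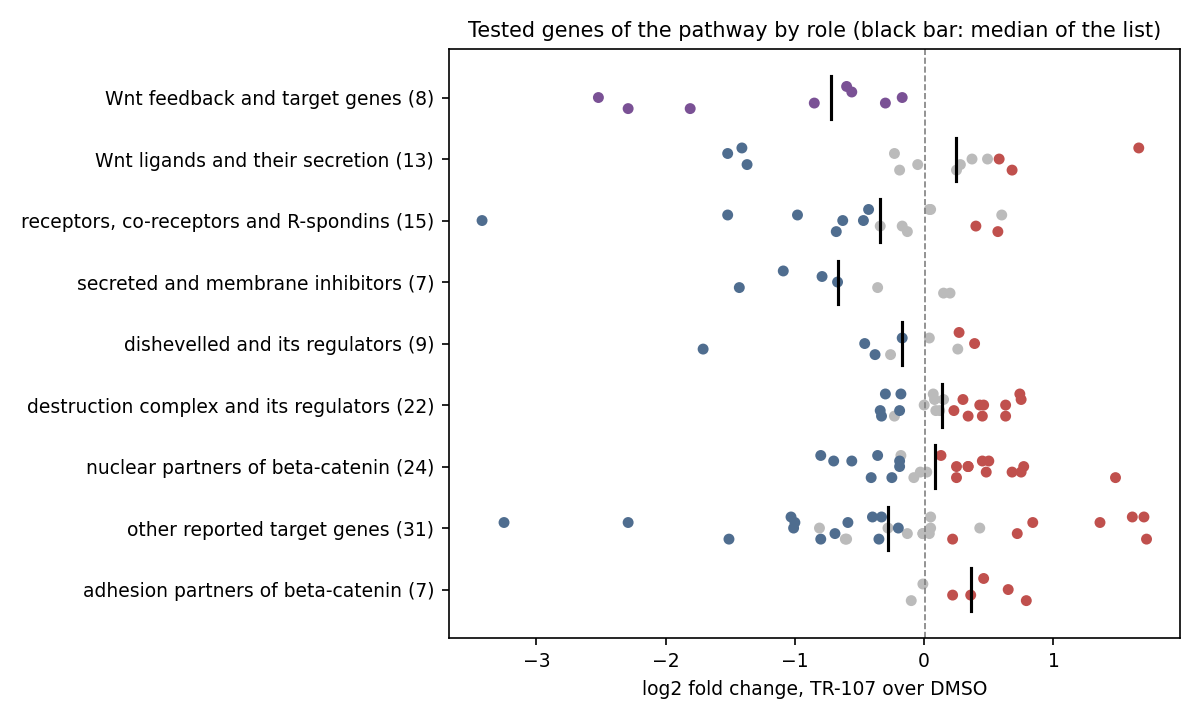
Log2 fold change, TR-107 over DMSO (x axis), of each tested gene by role (y axis, number tested in brackets). Blue points were called lower, red higher and grey neither, the purple points are the Wnt feedback and target genes, shown without calls, and black bars are list medians. Medians run from -0.72 for those genes and -0.67 for inhibitors to 0.36 for adhesion partners, with the dashed line at the median of all genes, 0.01.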

How the data were processed

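Per the submitters' processing notes, the authors used FastQC, Trimmomatic, HISAT2 and featureCounts with build hg38. The tool versions, annotation, strandedness and treatment of multi-mapping reads were not stated in those notes. The deposited files held raw counts of reads for each NCBI gene ID, analysed unchanged. Symbols and spans came from RefSeq (GRCh38.p14), and 27745 of 28395 IDs matched. The test was edgeR 4.0.16 (R 4.3.3): quasi-likelihood, TMM scaling, filterByExpr, robust dispersions, group alone, Benjamini-Hochberg adjustment over all genes tested at 0.05. It was first tested on simulated counts with 200 changed genes, each with a mean count of at least 20. Far more genes were called in these data, so that test does not cover their conditions. Fold changes are TR-107 over DMSO. The SE of a log2 fold change was its absolute value divided by the square root of the quasi-likelihood F statistic. DESeq2 1.42.0 and limma-voom (limma 3.58.1) were alternatives. The 10 genes, the 8 role lists and the tests were chosen with earlier results of these data known. Besides genes fixed by name, each role list names up to 3 called genes per direction by smallest p, with a mean of at least 1 CPM. DVL2 and BCL9 were added outside this rule after their values were seen. Of 53 other named genes, 13 overlap another counted gene. One further marker list is not reported here. Counts of replicate libraries differed beyond sampling noise (chi-square per degree of freedom 3.96 to 6.16). Each library was treated as 1 replicate, although this difference does not show that the libraries came from separate cultures.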

Additional observations from a re-analysis of the deposited data

How the results depend on the processing

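The count of called genes was 7956 in the main setting and 7323 to 8021 over 15 alternatives (other scaling, other filters, the replicate block, no mitochondrial genes, DESeq2, limma-voom, each library left out). Other pathway genes called higher numbered 38 to 43 and lower 43 to 49. With the replicate number as a block, 7918 genes were called, 40 pathway genes higher and 45 lower. Same-numbered libraries did not deviate together (r of deviations across genes -0.031, -0.018 and 0.049), so the numbers were not taken as pairs. The 8 tested feedback and target genes were lower in TR-107 in every setting, with log2 fold changes of -2.42 to -2.10 for AXIN2, -2.61 to -2.35 for DACT1, -2.14 to -1.57 for SP5 and -0.23 to -0.10 for ZNRF3. ZNRF3 was called lower with library size alone and without DMSO replicate 1 (-0.23 each), and not otherwise. With library size alone RNF43 (-0.66) and CTNNB1 (-0.37) moved by more than 1 SD between replicates, and LRP6 was called lower (edgeR adjusted p = 0.0245; 0.0245 to 0.579 over all settings). With library size alone all 8 feedback and target genes had lower fold changes than in the main setting, such as AXIN2 (-2.35, from -2.29). RNF43 and CTNNB1 had the smallest SDs of log2 CPM, 0.03 and 0.06, beside 0.28 for AXIN2. The TMM factors, left out in this setting, were 0.9653 to 0.9922 in TR-107 and 1.0195 to 1.0271 in DMSO. Scaling is all that this setting changes. Genes outside the set had lower fold changes in it too, such as CSNK1A1 (0.56, from 0.63) and BCL9L (0.68, from 0.75). Depth limits SP5, at 8 to 20 reads per treated library, LGR5 and LEF1.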
